A study of Mus musculus with 4 samples.

Results

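The 40 genes described here work in germ cells, in meiosis, in the piRNA pathway, in the oocyte or in the earliest embryo, and their RNA was measured in undifferentiated embryonic stem cells with and without mutation of Chd2. They were chosen by name for their known roles, with earlier results on the same cells known. All 40 are among the 23309 genes of the deposited table. The lines were 129/Ola mouse embryonic stem cells, wild type or Chd2 mut/mut, at passages 10 to 20. Both were grown on gelatin with 10% fetal bovine serum and 1000 U/ml leukemia inhibitory factor. Chd2 encodes a chromatin remodeler that uses ATP to reposition nucleosomes. Each genotype had 2 libraries, marked lot 1 and lot 2, and no label says whether lots were separate cultures or how the mutant line was derived.

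Germ cells pass on the genome, and most of their dedicated genes are kept silent elsewhere by DNA methylation and by repressor complexes that bind their promoters. Meiosis pairs homologous chromosomes along a protein axis and repairs programmed DNA breaks between them. The piRNA pathway uses small RNAs, Piwi proteins and Tudor-domain proteins to silence transposons in the germline. Embryonic stem cells are known to transcribe part of this repertoire, including genes shared with the oocyte and the early embryo.

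The deposited data hold 1 FPKM value per gene and genotype, a fragment count scaled by transcript length and by the number of mapped fragments. Levels can therefore be compared between genes. Paired values below give wild type first and the mutant second, and a gene whose 2 values average 1 FPKM or more is termed expressed. In these bulk samples, fewer cells with a transcript and less of it per cell cannot be told apart. No value carries a replicate error, and a gene is called changed only where the authors' deposited table says yes, which in every case goes with a q-value (an adjusted p-value) below 0.05. Absolute depth is unknown, and the steps of the lowest values give at most its ratio. Of 1057 genes above 0 in both genotypes with a summed FPKM under 0.1, 40 had a mutant to wild-type ratio within 0.001 of 0.951, the most frequent ratio. If values scale only with mapped fragments, the depth of the mutant would be about 1.05 times that of wild type. How the libraries were combined is not given, so this was not tested. Chd2, which checks the labels, fell 1.79-fold, from 10.2 to 5.69 FPKM (q = 0.0103 in the authors' deposited table). More of the Chd2 transcript remained in the mutant, whose library titles read Chd2KO, than was lost.

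Markers of embryonic stem cells were present in both lines, from 8.97 and 8.86 FPKM for Tbx3 to 3844 and 4380 FPKM for Dppa5a. All 10 looked at were expressed and none was called, with 8 higher in the mutant. Their levels summed to 5916 and 6626 FPKM, mostly from Dppa5a, and Nanog was at 114 and 150.1 FPKM. Of 20 markers of differentiation, 12 averaged below 1 FPKM, 8 were expressed and none was called. Among the 8 were Tubb3 at 50.7 and 49.1 FPKM, Krt8 at 19.8 and 22.5 FPKM and Thy1 at 14.2 and 11.5 FPKM. Of the 8, 5 lay higher in the mutant and 3 lower. The largest difference on the log2(FPKM + 1) scale was that of Pax6, at 1.68 and 2.42 FPKM. Markers of the somatic cells of the gonad were low, with 15 genes summing to 7.88 and 5.24 FPKM, and Cldn11, Cyp19a1, Fshr and Hsd3b1 listed at 0 in both. The 4 expressed ones overlapped in level with the lower genes of the set. Insl3 was at 2.36 and 0.203 FPKM (q = 0.962 in the authors' deposited table), Wt1 at 1.70 and 1.37 FPKM, Star at 1.66 and 1.87 FPKM and Cyp11a1 at 1.33 and 1.02 FPKM. The part of these marker differences in the results below was not tested.

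Among the 40 genes, 3 were called, and all 3 fell in the mutant. They were Fmr1nb, an X-linked gene whose product is known as a cancer/testis antigen, Pramel6, a leucine-rich repeat gene of the early embryo, and Nlrp9b, a member of the NLR family with its main expression in the oocyte. None of the 40 was called higher. Of all genes listed, 0.348% were called in either direction, 0.223% lower and 0.124% higher, against 3 of 40, all lower, here. Because these 40 names were put together with earlier results on the same cells known, the count describes the set and no more. Of the 40, 21 were expressed, including Fmr1nb and Pramel6 and not Nlrp9b. Among all expressed genes 0.697% were called, and 0.437% were called lower.

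The sequences just upstream of these 3 genes are shown because these are the called genes, beside those of an uncalled neighbour and of an uncalled gene rich in the dinucleotide CG, where DNA methylation acts. Each run below holds the 250 bases before the RefSeq transcription start, 5′ to 3′, in RefSeq build GRCm38.p6, with every CG in capitals. The reference strain is C57BL/6J, so bases can differ in the 129/Ola cells. Fmr1nb (chrX:68761589-68761838, plus strand) has 7 CG, Pramel6 (chr2:87506315-87506564, plus strand) has 2 and Nlrp9b (chr7:20007773-20008022, plus strand) has 2. Pramel7 (chr2:87492419-87492668, minus strand), the uncalled neighbour of Pramel6, has 1. Ybx2 (chr11:69935649-69935898, plus strand), which had the largest difference upward among the 21 expressed genes and was not called, has 35.
Fmr1nb: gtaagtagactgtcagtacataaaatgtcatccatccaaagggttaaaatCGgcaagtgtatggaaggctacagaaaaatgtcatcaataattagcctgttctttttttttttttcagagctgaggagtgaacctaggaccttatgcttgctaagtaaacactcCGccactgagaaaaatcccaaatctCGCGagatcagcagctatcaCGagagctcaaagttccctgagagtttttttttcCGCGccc
Pramel6: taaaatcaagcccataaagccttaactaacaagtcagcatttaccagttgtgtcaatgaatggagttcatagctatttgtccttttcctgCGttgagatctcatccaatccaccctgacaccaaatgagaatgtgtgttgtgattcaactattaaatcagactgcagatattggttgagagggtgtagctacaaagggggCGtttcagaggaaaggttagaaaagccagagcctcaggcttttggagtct
Nlrp9b: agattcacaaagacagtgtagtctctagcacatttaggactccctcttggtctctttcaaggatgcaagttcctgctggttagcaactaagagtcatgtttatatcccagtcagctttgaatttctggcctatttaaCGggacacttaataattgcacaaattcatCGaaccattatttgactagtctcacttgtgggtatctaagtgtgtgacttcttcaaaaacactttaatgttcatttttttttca
Pramel7: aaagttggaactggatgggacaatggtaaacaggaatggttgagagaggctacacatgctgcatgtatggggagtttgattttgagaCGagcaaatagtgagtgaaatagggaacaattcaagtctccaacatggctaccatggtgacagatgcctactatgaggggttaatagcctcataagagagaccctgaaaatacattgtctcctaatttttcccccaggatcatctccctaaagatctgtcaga
Ybx2: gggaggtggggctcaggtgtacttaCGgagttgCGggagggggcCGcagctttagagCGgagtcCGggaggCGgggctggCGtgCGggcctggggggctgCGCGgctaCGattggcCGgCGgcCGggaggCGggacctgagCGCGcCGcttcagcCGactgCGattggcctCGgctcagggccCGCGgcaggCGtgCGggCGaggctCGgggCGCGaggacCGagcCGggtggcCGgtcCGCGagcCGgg

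Fmr1nb stood at 7.53 and 2.28 FPKM. This 3.30-fold drop was the largest among the 21 expressed genes of the set, with a log2 fold change of -1.72 and a q-value of 0.0179 in the authors' deposited table. Pramel6 fell 2.44-fold, from 3.12 to 1.28 FPKM (log2 fold change -1.29, q = 0.0397 in the authors' deposited table). The mutant thus kept 30.3% of the wild-type level of Fmr1nb and 41.0% of that of Pramel6. Nlrp9b fell 2.66-fold from a low level, from 1.22 to 0.459 FPKM (log2 fold change -1.41, q = 0.0179 in the authors' deposited table). None of the 3 called genes is abundant, and all lay below 10 FPKM in both genotypes.

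The closest relatives and neighbours of the called genes did not all go with them. Pramel7, which lies next to Pramel6 on chromosome 2 and encodes a related protein, was at 1.27 and 1.17 FPKM (q = 0.998 in the authors' deposited table). Fmr1, the fragile X gene directly before Fmr1nb, was at 20.7 and 22.5 FPKM (q = 0.997 in the authors' deposited table), and Aff2 beyond it was at or near 0 in both genotypes. On chromosome 7 the picture was different. The genes in the first and second places before Nlrp9b, Ceacam20 and Igsf23, were called as well. Ceacam20 fell from 3.55 to 0.996 FPKM (q = 0.0103) and Igsf23 from 3.43 to 1.54 FPKM (q = 0.0179), both in the authors' deposited table. Pvr, the gene before these, was at 8.22 and 6.37 FPKM (q = 0.543 in the authors' deposited table), and the 3 vomeronasal receptor genes after Nlrp9b were listed at 0. Nlrp9b, Ceacam20 and Igsf23 were thus 3 called genes in a row, all lower in the mutant.

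**Figure D1:**
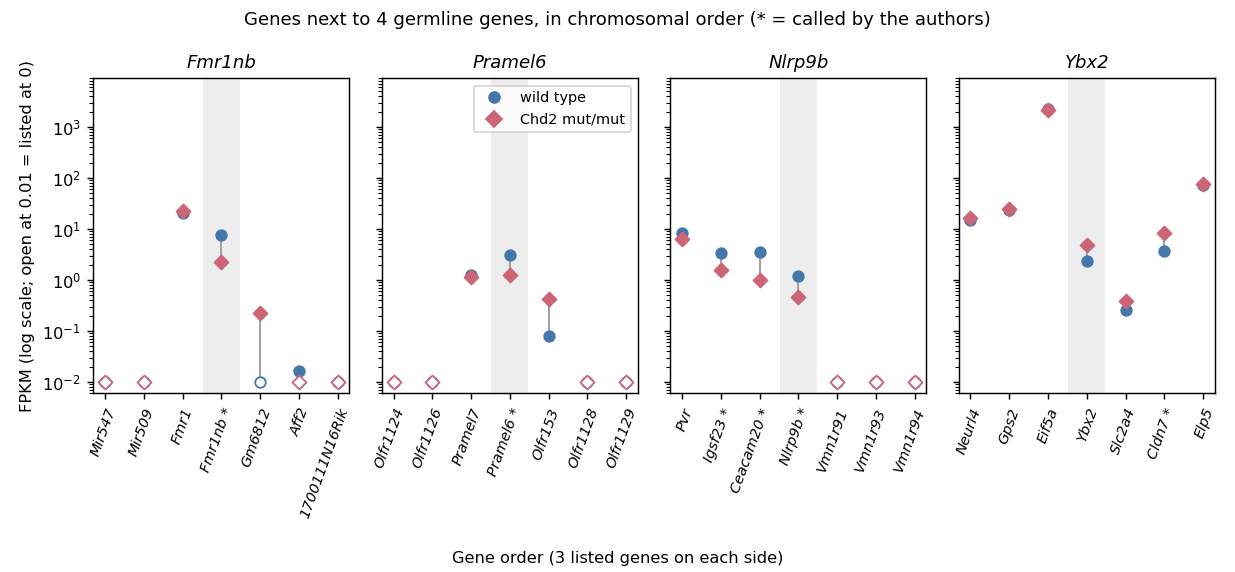
FPKM in wild type (circles) and Chd2 mut/mut (diamonds) of 4 germline genes (grey band) and the 3 listed genes on each side in chromosomal order, on a log axis, with open symbols for genes listed at 0 and asterisks for genes called by the authors. Igsf23, Ceacam20 and Nlrp9b are lower in the mutant side by side, while Fmr1 (20.7 and 22.5 FPKM) and Pramel7 (1.27 and 1.17 FPKM) have nearly overlapping symbols.

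Of the 40 genes, 4 had a called gene within 3 places on the chromosome (10.0%), against 2.1% of the 21616 genes that could be placed in gene order. One of them, Pramel7, counts through Pramel6, another gene of the set. The other three were Nlrp9b, Ybx2, which lies near the claudin gene Cldn7, and Tdrd1, which lies near the actin-binding gene Ablim1. Cldn7 rose from 3.69 to 8.28 FPKM and Ablim1 from 0.667 to 1.30 FPKM (q = 0.0103 for each in the authors' deposited table). Looking at neighbours was decided after the values were seen.

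Genes with near-identical copies can exchange reads, so shared sequence was counted. Of the 50-base stretches in the longest GENCODE transcript, Fmr1nb and Pramel6 shared none with another annotated gene and Nlrp9b shared 6.22%, mostly with Nlrp9a, which was listed at 0 in both genotypes. Nlrp9c was at 0.0131 and 0.0125 FPKM. More sequence was shared by Sycp3, 50.4% with Chpt1, which overlaps it on the opposite strand, and by Hormad1, 27.2%, mostly with the gene model Gm15529. Values of Sycp3 and Hormad1 are therefore uncertain. The labels do not say whether reads were counted by strand, which bears on the overlap of Sycp3 with Chpt1. Dnd1 overlaps Wdr55 on the opposite strand and shares 4.33% with it.

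**Figure D2:**
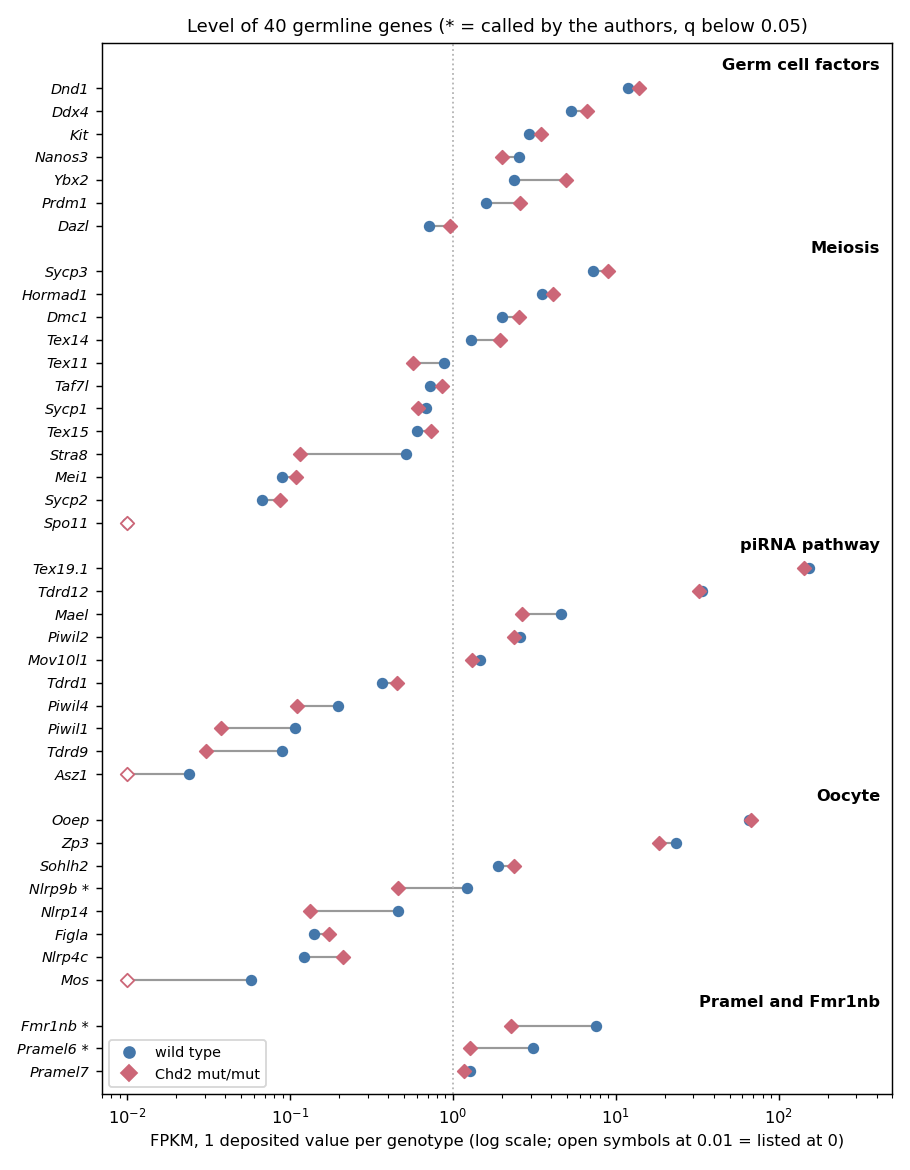
FPKM of each of the 40 genes on a log axis, grouped by role, in wild type (blue circles) and Chd2 mut/mut (red diamonds), with a dotted line at 1 FPKM and open symbols for genes listed at 0. Levels run from 0 for Spo11 to 153 FPKM for Tex19.1 in wild type, and the long bars at a wild-type level above 1 FPKM belong mostly to Fmr1nb, Pramel6, Nlrp9b, Ybx2 and Mael.

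Levels within the set spanned a wide range, and the order was led by the same genes in both genotypes. Tex19.1, a mammal-specific gene that restrains retrotransposons in germ cells and placenta, was the most abundant at 153 and 142 FPKM, above 96.9% of all genes listed. Ooep, a component of the subcortical maternal complex of the egg, followed at 65.9 and 68.1 FPKM. Then came the piRNA gene Tdrd12 at 33.6 and 32.3 FPKM, the zona pellucida gene Zp3 at 23.5 and 18.4 FPKM and the germ cell survival gene Dnd1 at 11.8 and 13.8 FPKM. These 5 genes were the ones at or above 10 FPKM in both genotypes, and none was called (q between 0.607 and 0.998 in the authors' deposited table). At 1 FPKM or more were 22 genes in wild type and 21 in the mutant, the difference being Nlrp9b.

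Among the 7 factors of germ cell specification and RNA control, none was called, and 6 of 7 lay higher in the mutant. Ybx2, an RNA-binding protein that stores messages in germ cells, showed the largest difference, at 2.38 and 4.92 FPKM. It missed the threshold (log2 fold change 1.05, q = 0.0712 in the authors' deposited table). Prdm1, the transcription factor that specifies primordial germ cells, was close to it as well, at 1.59 and 2.58 FPKM (log2 fold change 0.70, q = 0.0667 in the authors' deposited table). At a q-value of at most 0.1 the count would be 5 of 40, against 0.502% of all genes, with Ybx2 and Prdm1 added on the higher side.

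The other genes of this group differed less. The RNA helicase gene Ddx4 was at 5.30 and 6.65 FPKM, Dnd1 at the levels given above, and Dazl, a translational regulator, at 0.717 and 0.966 FPKM. Nanos3, a translational repressor that works with Pumilio proteins in primordial germ cells, was the one lower in the mutant, at 2.56 and 1.99 FPKM. Kit, the receptor that guides germ cell migration and survival, was at 2.93 and 3.49 FPKM. Its ligand Kitl was at 0.981 and 1.64 FPKM (q = 0.0620 in the authors' deposited table). Over the 6 expressed genes of this group the mutant log2(FPKM + 1) exceeded that of wild type by a median of 0.24, against -0.0012 over all 10766 expressed genes.

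The 12 genes of meiosis and spermatogenesis were low, and none was called. Of the 12, 4 were expressed, and these 4 all lay higher in the mutant, with a median difference of 0.26 on the log2(FPKM + 1) scale. Among all expressed genes 49.6% lay higher. The 4 include Sycp3 and Hormad1, whose values are uncertain because of the shared sequence given above. Sycp3, of the axial element of the synaptonemal complex, was at 7.26 and 9.0 FPKM, and Hormad1, which marks unsynapsed axes, at 3.54 and 4.13 FPKM. Dmc1, the meiotic recombinase, was at 2.01 and 2.56 FPKM, and Tex14, needed for the bridges between germ cells, at 1.30 and 1.94 FPKM. The smallest q-value of the 4 was 0.283, that of Tex14, in the authors' deposited table.

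The other 8 did not go one way: 4 lay higher in the mutant, 3 lower, and Spo11, the enzyme that makes meiotic DNA breaks, was listed at 0 in both genotypes. The partners of Sycp3 in the synaptonemal complex were scarce, with Sycp1, the transverse filament, at 0.680 and 0.610 FPKM and Sycp2 at 0.0673 and 0.0866 FPKM. Mei1, required for break formation, was at 0.0899 and 0.109 FPKM. Stra8, the gatekeeper of meiotic entry, was at 0.518 and 0.115 FPKM, the largest ratio of this group, with a q-value of 1 in the authors' deposited table. Tex11, an X-linked recombination gene, was at 0.881 and 0.568 FPKM, Tex15, which acts in break repair, at 0.605 and 0.730 FPKM, and Taf7l, a testis relative of the general transcription factor gene Taf7, at 0.729 and 0.852 FPKM. Taf7 itself was at 47.9 and 48.8 FPKM.

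A wider list of meiosis genes outside the set did not show the same side. Of 28 listed, 13 were expressed, of which 5 lay higher and 8 lower, with a median difference of -0.06 on the log2(FPKM + 1) scale. Stag3, the meiosis-specific subunit of cohesin, was the one called. It fell 1.82-fold, from 3.15 to 1.73 FPKM (q = 0.0103 in the authors' deposited table). Rec8 and Smc1b, also subunits of meiotic cohesin, were at 0.539 and 0.552 FPKM and at 0.343 and 0.278 FPKM. Both had a q-value of 1 in the authors' deposited table. Dmc1's cofactors were far more abundant than Dmc1 itself, with Mnd1 at 48.4 and 39.7 FPKM and Psmc3ip at 38.4 and 38.1 FPKM. Further uncalled genes with large differences were Spata22, at 1.68 and 0.845 FPKM, and Syce1, at 5.50 and 4.01 FPKM (q = 0.481 and 0.652 in the authors' deposited table).

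The 10 piRNA genes mostly lay lower in the mutant, and none was called. Among all 10766 expressed genes, 5423 lay lower. Of the 5 expressed piRNA genes, all 5 lay lower, with a median difference of -0.10 on the log2(FPKM + 1) scale. Most of these differences were small: Tex19.1 and Tdrd12 are given above, Piwil2, the Piwi protein of the fetal and adult germline, was at 2.58 and 2.36 FPKM, and the helicase gene Mov10l1 was at 1.47 and 1.30 FPKM. The exception was Mael, a component of the nuage needed for transposon silencing, which was at 4.64 and 2.68 FPKM (log2 fold change -0.79, q = 0.164 in the authors' deposited table). With quantile normalization the differences of Tdrd12 and Tex19.1 shrank to -0.01 and -0.04, still on the lower side. Piwil1, Piwil4, Tdrd9, Tdrd1 and Asz1 were below 0.5 FPKM in both genotypes, and 4 of these 5 lay lower in the mutant. Asz1, a mitochondria-anchored scaffold of the pathway, was at 0.0240 FPKM in wild type and listed at 0 in the mutant.

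Further piRNA genes outside the set were split evenly. Of 19 listed, 12 were expressed, 6 higher and 6 lower, with a median difference of -0.02 and no call. Morc1, which silences transposons in the male germline, was at 52.6 and 44.1 FPKM, and Ddx25, a testis RNA helicase, at 4.53 and 3.39 FPKM. Tex19.2, the paralog beside Tex19.1, was at 2.82 and 3.44 FPKM, on the opposite side from Tex19.1, with which it shares 2.95% of the 50-base stretches of the Tex19.1 transcript. The mitochondrial piRNA gene Pld6 was at 3.20 and 2.66 FPKM. Their q-values lay between 0.730 and 0.959 in the authors' deposited table.

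Of the 8 oocyte genes, Nlrp9b was the one called, 4 lay higher and 4 lower. Ooep and Zp3 were abundant, as given above, with Zp3 on the lower side (log2 fold change -0.35, q = 0.607 in the authors' deposited table). Of its zona partners, Zp2 was listed at 0 and Zp1 was at 0.0214 and 0.0204 FPKM. Of the other genes of the subcortical maternal complex, Khdc3 was at 55.5 and 54.5 FPKM and Tle6 at 5.39 and 5.17 FPKM, whereas Nlrp5 was at 0.0204 and 0.0503 FPKM and Padi6 at 0.0173 and 0.0361 FPKM. Zbed3, another oocyte gene, was at 6.78 and 7.03 FPKM. Sohlh2, a helix-loop-helix regulator of early oocytes, was at 1.88 and 2.38 FPKM and Figla, which drives the zona genes in oocytes, at 0.140 and 0.173 FPKM. Mos, the kinase that arrests the egg in meiosis, was at 0.0580 FPKM in wild type and listed at 0 in the mutant.

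The other oocyte NLR genes of the set were near the bottom of the range. Nlrp14 was at 0.460 and 0.132 FPKM and Nlrp4c at 0.122 and 0.211 FPKM, both with a q-value of 1 in the authors' deposited table. Of 16 further NLR genes listed, which include Nlrx1 and the Nlrp5 given above, 2 were expressed, Nlrp1a at 32.4 and 31.7 FPKM and Nlrp4f at 2.49 and 2.54 FPKM. Of 9 further Prame-like genes, 2 were, Pramef12 at 19.6 and 21.5 FPKM and Pramef8 at 6.09 and 4.62 FPKM (q = 0.985 and 0.468 in the authors' deposited table). No gene of these 2 lists was called.

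**Figure D3:**
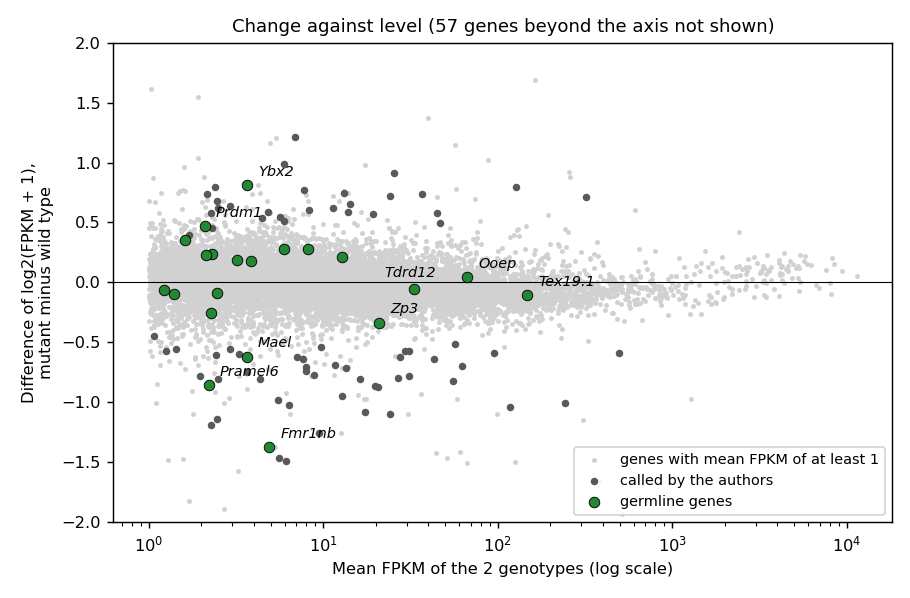
Difference in log2(FPKM + 1) between mutant and wild type (above 0, higher in the mutant) against the mean FPKM (log axis) for the 10766 expressed genes (light grey, 57 beyond the axis not shown), those called by the authors (dark grey) and the 21 expressed germline genes (green). Fmr1nb, at -1.38, and Pramel6, at -0.85, lie at the lower edge, Ybx2, at 0.81, at the upper edge, and most other germline genes lie within the cloud of all genes.

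Across the whole set, similar numbers lay on each side. Of the 21 expressed genes, 11 lay higher and 10 lower in the mutant, with a median difference of 0.05 on the log2(FPKM + 1) scale. Over all 40 genes, 19 lay higher and 20 lower, and the median was -0.02. Among all expressed genes, 5343 lay higher and 5423 lower. The sum of FPKM over the 40 genes was 346 for wild type and 331 for the mutant, and Tex19.1 made up the largest share of it.

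**Figure D4:**
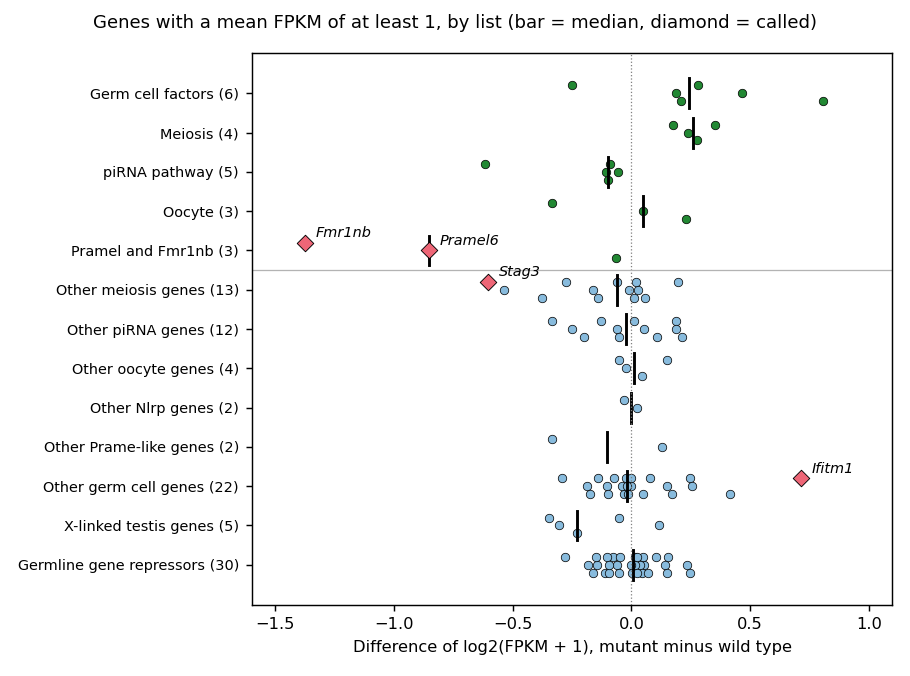
Difference in log2(FPKM + 1) between mutant and wild type (right of 0, higher in the mutant) for expressed genes, in the 5 role groups of the 40 genes (green, above the line) and in 8 further lists (blue), with the number of genes in brackets, the median as a bar and called genes as red diamonds. Of the called genes plotted, Fmr1nb, Pramel6 and Stag3 lie left of 0 and Ifitm1 right of it, and the 30 repressor genes have a median of 0.01.

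Other germ cell genes and the known repressors of germline genes were looked at for comparison. Of 32 other germ cell genes listed, 1 was called: Ifitm1, an interferon-induced membrane protein of early germ cells, rose 1.64-fold from 241 to 396 FPKM (q = 0.0103 in the authors' deposited table). Further uncalled genes were Dppa3, known as Stella, at 18.8 and 20.9 FPKM, Elavl2 at 6.13 and 7.51 FPKM and Tex264 at 20.5 and 16.5 FPKM. Of the X-linked testis genes, 5 of 33 were expressed and none was called, with Rhox9 at 8.25 and 6.27 FPKM, Rhox13 at 6.53 and 5.09 FPKM and Rhox6 at 10.8 and 9.05 FPKM. Fmr1nb was thus the one call among the X-linked genes of these lists. All 30 repressor genes were expressed and none was called, with 16 higher, 14 lower and a median difference of 0.01. Mga and its partner Max, whose complex binds germline promoters, were at 14.1 and 15.8 FPKM and at 49.7 and 44.8 FPKM. E2f6 was at 10.3 and 12.4 FPKM, Yaf2 at 1.58 and 2.06 FPKM, Pcgf6 at 48.2 and 44.6 FPKM, and the DNA methyltransferase genes Dnmt3a and Dnmt3b at 7.05 and 5.64 FPKM and at 146 and 128 FPKM.

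Promoter letters were then compared with these values, as MGA and MAX bind the E-box and E2F6 an E2F site. RefSeq windows of 300 bases, 250 before and 50 after the transcription start, were found for 33 of the 40 genes. The E-box letters CACGTG, which read the same on both strands, were in a window of 11 of the 33 genes, or 33.3%, against 8.09% of all 27025 genes with a window and 12.6% of the expressed ones. The E2F letters GGCGGGA, on either strand, were in a window of 7 genes, or 21.2%, against 12.7% and 25.6%. The cyclic AMP response element TGACGTCA was in none of the 33, against 2.03% of all genes. The median number of CG per gene was 16, against 8 over all genes and 23 over expressed genes, and the E-box holds a CG itself.

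Of the 11 genes with an E-box, 5 belong to the piRNA pathway (Mael, Mov10l1, Piwil1, Tdrd1, Tdrd9) and 4 to meiosis (Hormad1, Sycp1, Sycp3, Taf7l), with Ddx4 and Zp3 besides. None of the 3 called genes has one. The sites of the 6 expressed ones are shown, as the members on which letters and values can be set side by side. Each run is read on the gene's strand, with the E-box in capitals and 12 bases on each side where the window reaches that far. They lie at chr1:166238950-166238979 (Mael, minus strand), chr3:95559608-95559637 and chr3:95559645-95559674 (Hormad1, plus), chr5:135979912-135979941 (Zp3, plus), chr10:88459511-88459540 and chr10:88459532-88459561 (Sycp3, plus), chr13:112652322-112652351 (Ddx4, minus) and chr15:88982744-88982765 (Mov10l1, plus), all in GRCm38.p6 and upstream of the start.
Mael: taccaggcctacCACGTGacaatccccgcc
Hormad1, first site: caaagggtgcgcCACGTGccagtgacagtt
Hormad1, second site: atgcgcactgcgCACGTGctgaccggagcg
Zp3: ttgaataggaatCACGTGgagtgtctttac
Sycp3, first site: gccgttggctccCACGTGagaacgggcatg
Sycp3, second site: acgggcatggagCACGTGctaggaggcggg
Ddx4: ggcgtccgcccgCACGTGcagccgtttaag
Mov10l1: ccttCACGTGctaaccgccaac

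Genes with and without the E-box lay on both sides. Of the 6 expressed genes with an E-box, Ddx4, Hormad1 and Sycp3 lay higher in the mutant and Mael, Mov10l1 and Zp3 lower. Their median difference was 0.04 on the log2(FPKM + 1) scale. This split and median include Hormad1 and Sycp3, whose values are uncertain because of the shared sequence given above. Of the 13 without one, 7 lay higher and 6 lower, with a median of 0.05. Mael, Hormad1, Ddx4 and Zp3 hold E2F letters as well. A match of letters is a description of the sequence, and binding was not measured in these data. Among the called genes, the window of Pramel6 holds 3 CG and that of Nlrp9b 2, below the median of 8 over all genes. The window of Fmr1nb holds 9, just above it. Each of these counts lies below the median of 16 over the genes of the set with a window and of 23 over expressed genes. The uncalled Pramel7 and Nanos3 have 1 and 3.

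**Figure D5:**
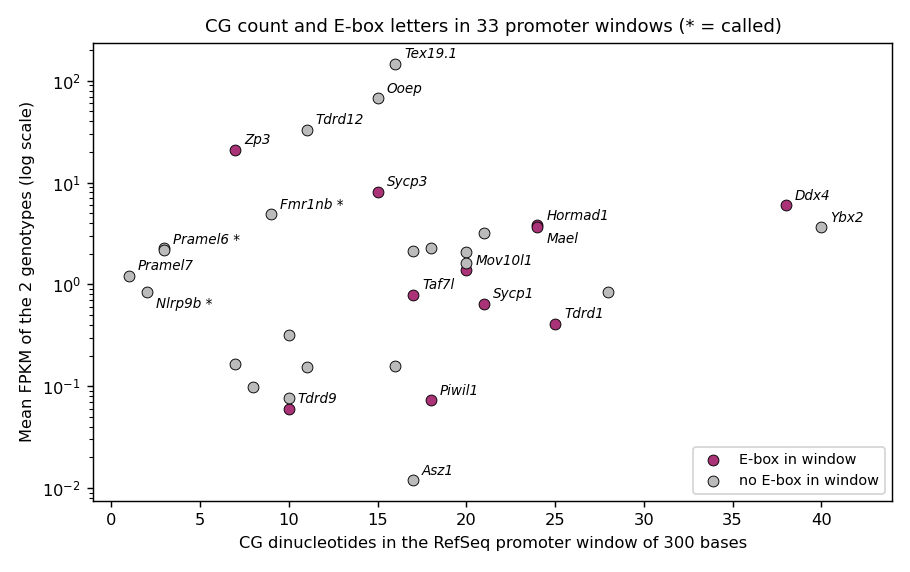
Mean FPKM (log axis) of the 33 genes with a RefSeq promoter window against the number of CG dinucleotides in that window, the highest where a gene has several windows, with purple points for windows with an E-box and asterisks for called genes. The called Fmr1nb, Pramel6 and Nlrp9b lie at the left, between 2 and 9 CG, without an E-box, and Ybx2 lies farthest right at 40 CG. Uncalled genes lie at the left too, such as Nanos3 at 3, Nlrp4c at 7 and Mei1 at 8 CG, and 22 of the 33 genes have no E-box.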

How the data were processed

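RNA was sequenced from 4 libraries, 2 per genotype, each made with the NEBNext Ultra RNA kit from 1 ug of total RNA, per the labels' protocols. The authors deposited 1 FPKM value per gene and genotype, per the file headers, beside a q-value, a call and the log2 fold change, which is positive where the mutant is higher. Build mm9 and the tools TopHat2 2.1.0, Cufflinks and bcl2fastq 2.17.1.14 are named, per the submitters' processing notes. The Cufflinks version, the annotation, the test behind the q-value and the way libraries were combined are all not given in the sources used here.

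A limma fit per library had been planned and could not be run on 1 value per genotype, so calls are the authors'. Differences are of log2(FPKM + 1), and expressed genes are those averaging 1 FPKM or more. This scale understates changes of low genes, and folds are plain FPKM ratios. The members and lists were chosen with earlier results of these data known. Named genes are every member called or expressed, and of other lists called genes and up to 4 expressed ones with the largest differences, plus Mga, Max, E2f6 and Pcgf6. Of the marker lists, the 2-cell-like list and the paralogs of Taf7l, not all of these are printed. Partners of a member (such as Rec8, Zp2 or Psmc3ip), low members with a role and the neighbours were named after values were seen. The 2-cell-like list had 1 of 22 genes expressed and no call, the differentiation markers 8 of 20 and no call, and the paralogs of Taf7l 5 of 9 and no call. Over the 22 genes of the 2-cell-like list, 4 lay higher in the mutant and 14 lower, and 21 averaged below 1 FPKM. Promoter windows are RefSeq's (GRCm38.p6), gene order and transcripts GENCODE M21's, matched by symbol. These are not the authors' build, and no measured value depends on them. Medians and motif counts were tested on simulated data. A calculation of shared-sequence shares was tested as well, but the printed shares came from a separate calculation that was not. Python 3.11.15, numpy 2.4.6 and pandas 2.3.3 were used. Alternatives were other pseudocounts, filters, thresholds and scalings.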

Additional observations from a re-analysis of the deposited data

How the results depend on the processing

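The count of 3 called genes became 2 with a mean of at least 1 FPKM, which drops Nlrp9b, and 2 at a q-value of at most 0.02, which drops Pramel6. It was 0 with a mean of at least 5 FPKM, a level reached by 7 of the 40 genes, and 5 at a q-value of at most 0.1, which adds Ybx2 and Prdm1. It stayed 3 when the fold change had to reach 1 on the log2 scale in either direction, and when genes sharing over 20% of their sequence with another gene were left out, a choice made after seeing the data. The median difference of the expressed genes, 0.05 on the log2 scale, was -0.0171 without the filter, since fewer of the low genes lie higher, and 0.10 with quantile normalization. The other settings gave 0.05. Of 88 values recomputed for 22 named genes, 76 stayed within 1.5 times, 12 moved further and 0 turned direction. No paired analysis was possible because the table holds 1 value per genotype, so leaving out a library and a block on the lot number were not run. How far any of these values varies between libraries of a genotype is unknown.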
